A study of Mus musculus with 6 samples.

Results

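The promoters of long intergenic noncoding RNA (lincRNA) genes were examined in the dentate gyrus of adult mice. A lincRNA promoter was made of the covered CpG sites within 1 kb of a transcription start of an autosomal lincRNA gene in GENCODE M21, provided that each site lay over 1 kb from every transcription start of a protein-coding gene. The annotation holds 5209 autosomal lincRNA genes. Of these, 1434 had a covered site within 1 kb of a start and 1139 kept at least 1 site after the protein-coding limit. These 1139 promoters stand among 20932 autosomal gene promoters with a covered site and hold 11624 sites, 485 of which serve more than 1 lincRNA gene. The median promoter had 5 sites and the best covered had 89. Levels are given for the 845 promoters with at least 3 sites, as the mean percentage of methylated reads over the sites, and the 294 promoters with 1 or 2 sites are described separately. The choice used position and gene type and no methylation value.

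The assay was reduced representation bisulfite sequencing (RRBS), which cuts DNA at CCGG and therefore samples CpG-rich sequence. The tissue was micro-dissected dentate gyrus from female C57BL/6JRj mice aged 4.5 months, 3 kept in standard housing (STD) and 3 in environmental enrichment (ENR), with 1 library per mouse. The ENR mice lived together in a larger enclosure with tunnels and toys, and the STD mice in smaller groups in standard cages. Group size, enclosure and enrichment thus cannot be told apart. STD mice of the same age are the controls, so that the housing comparison asks whether such an environment alters CpG methylation. Dentate gyrus tissue holds granule neurons, glia and vascular cells, so that a level is an average over cell types, and a change in cell composition and a change within cells cannot be told apart. The table gives percentages for cytosines with at least 10 reads and no read numbers, so that no counting interval can be given. The table holds no transcript levels, so the tissue label was not checked against marker genes.

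LincRNAs are transcribed by RNA polymerase II from their own promoters, lie between protein-coding genes and are mostly spliced and polyadenylated without coding for protein. As at other genes, a CpG-rich promoter of a lincRNA in use is usually free of methylation, while CpG-poor and repeat-derived starts are often methylated in somatic tissue. Several lincRNAs are well studied in the brain, among them hosts of neuronal microRNAs, scaffolds of nuclear bodies and imprinted transcripts that are made from the maternal chromosome.

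Sequences of the mm10 (GRCm38) reference are shown for promoters that represent the levels met among lincRNA genes. Each runs in the direction of transcription, and capitals mark CpGs with a covered site. Distances below are counted from the annotated start of the gene with the most covered sites within 1 kb.

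Low methylation is represented by the small nucleolar RNA host Snhg6 (chr1:9944026-9944175, minus strand), the nuclear RNA Miat (chr5:112228661-112228840, minus strand) and the microRNA host Mir9-3hg (chr7:79515610-79515789, plus strand, 378 to 557 bp downstream of its start).
Snhg6: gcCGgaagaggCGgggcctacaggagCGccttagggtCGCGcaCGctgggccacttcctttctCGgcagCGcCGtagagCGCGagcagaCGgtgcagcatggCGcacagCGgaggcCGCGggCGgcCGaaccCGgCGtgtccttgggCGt
Miat: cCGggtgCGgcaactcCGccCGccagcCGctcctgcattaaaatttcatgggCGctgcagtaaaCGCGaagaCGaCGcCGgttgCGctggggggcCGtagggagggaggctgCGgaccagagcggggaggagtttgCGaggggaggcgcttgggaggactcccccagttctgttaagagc
Mir9-3hg: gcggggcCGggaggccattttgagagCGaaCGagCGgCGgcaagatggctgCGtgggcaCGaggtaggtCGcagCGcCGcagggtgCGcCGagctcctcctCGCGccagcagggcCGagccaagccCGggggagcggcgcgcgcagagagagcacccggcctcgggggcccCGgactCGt
The 24 covered sites of the Snhg6 stretch averaged between 0 and 0.75% in the 6 libraries, the 15 of Miat between 0.593 and 2.25% and the 23 of Mir9-3hg between 0 and 4.33%.

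The imprinted genes H19 and Meg3 are shown at 2 places each, because their levels changed along the gene. For H19 these are the start (chr7:142578101-142578280, minus strand) and a stretch about 2 kb downstream (chr7:142575794-142575943, minus strand). For Meg3 they are a stretch upstream (chr12:109540273-109540422, plus strand) and the start itself (chr12:109540911-109541090, plus strand).
H19 start: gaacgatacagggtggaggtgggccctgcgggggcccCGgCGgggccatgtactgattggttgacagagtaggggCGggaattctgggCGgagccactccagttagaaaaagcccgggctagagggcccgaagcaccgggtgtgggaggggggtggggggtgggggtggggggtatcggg
H19 downstream: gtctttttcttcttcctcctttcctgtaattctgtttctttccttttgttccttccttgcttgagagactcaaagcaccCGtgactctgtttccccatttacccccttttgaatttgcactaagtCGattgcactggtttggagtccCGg
Meg3 upstream: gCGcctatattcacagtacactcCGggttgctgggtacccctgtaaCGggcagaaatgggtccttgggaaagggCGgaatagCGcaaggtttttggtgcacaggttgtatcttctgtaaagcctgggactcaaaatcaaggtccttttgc
Meg3 start: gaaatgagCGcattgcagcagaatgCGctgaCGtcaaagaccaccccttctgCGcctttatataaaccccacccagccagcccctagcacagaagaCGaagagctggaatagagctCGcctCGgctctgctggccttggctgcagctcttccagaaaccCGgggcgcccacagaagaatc
The 4 sites of the H19 start averaged between 0 and 21.9% in the 6 libraries, and the 3 sites downstream between 87.3 and 96.0%. The 6 upstream sites of Meg3 averaged between 5.89 and 47.5%, the lowest being ENR replicate 1, and the 8 sites at its start between 1.23 and 5.23%.

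Intermediate levels are represented by Gm31408, at a stretch upstream (chr9:31558684-31558863, plus strand) and at its start (chr9:31559594-31559773, plus strand), and by Gm47153 (chr9:46978851-46979110, minus strand). Full methylation is represented by Gm26874 (chr19:57462041-57462220, minus strand).
Gm31408 upstream: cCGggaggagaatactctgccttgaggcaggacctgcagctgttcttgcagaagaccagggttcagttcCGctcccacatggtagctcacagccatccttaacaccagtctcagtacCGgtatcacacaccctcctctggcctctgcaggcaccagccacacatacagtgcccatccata
Gm31408 start: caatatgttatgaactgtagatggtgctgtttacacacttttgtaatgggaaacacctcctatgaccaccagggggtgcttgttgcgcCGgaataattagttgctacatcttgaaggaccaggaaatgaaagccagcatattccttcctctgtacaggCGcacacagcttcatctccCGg
Gm47153: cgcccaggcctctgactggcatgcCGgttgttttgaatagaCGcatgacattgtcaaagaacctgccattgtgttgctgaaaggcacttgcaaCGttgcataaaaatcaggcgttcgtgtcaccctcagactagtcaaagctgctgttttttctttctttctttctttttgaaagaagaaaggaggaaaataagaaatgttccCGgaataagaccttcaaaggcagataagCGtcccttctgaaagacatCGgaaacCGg
Gm26874: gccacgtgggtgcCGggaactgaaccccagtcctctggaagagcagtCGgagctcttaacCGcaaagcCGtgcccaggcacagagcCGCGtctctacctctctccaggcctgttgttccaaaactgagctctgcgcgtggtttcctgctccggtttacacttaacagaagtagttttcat
Gm31408 joined 4 upstream sites at 78.3 to 88.2% in the 6 libraries with 4 sites at its start at 1.67 to 5.40%. The 10 sites of Gm47153 averaged 53.8 to 60.5% and the 6 of Gm26874 averaged 96.7 to 100%.

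The promoters that differed most between housing groups by their unadjusted p-values are represented by Gm17028 (chr10:103031188-103031307, minus strand), Gm32224 (chr14:25128080-25128259, plus strand) and Gm2694 (chr8:87473565-87473684, plus strand). Their values are given with the housing comparison.
Gm17028: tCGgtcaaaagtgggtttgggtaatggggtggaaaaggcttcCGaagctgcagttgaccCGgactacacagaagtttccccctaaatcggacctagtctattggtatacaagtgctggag
Gm32224: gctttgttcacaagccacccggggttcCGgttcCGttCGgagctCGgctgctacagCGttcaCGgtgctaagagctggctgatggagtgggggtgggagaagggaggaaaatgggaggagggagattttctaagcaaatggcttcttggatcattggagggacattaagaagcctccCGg
Gm2694: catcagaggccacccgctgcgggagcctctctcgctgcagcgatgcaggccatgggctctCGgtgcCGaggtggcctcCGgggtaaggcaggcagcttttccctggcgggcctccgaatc

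The first comparison set lincRNA promoters against protein-coding promoters. LincRNA promoters were more methylated in every library. The mean over 845 lincRNA promoters was 31.0%, 30.9% and 27.9% in STD replicates 1 to 3 and 30.9%, 30.3% and 25.5% in ENR replicates 1 to 3. Over 13885 protein-coding promoters the same means ran from 6.95 to 8.03%. The difference was 21.7 percentage points ± 1.81 (SD, n = 6 libraries) and lay between 18.6 and 23.0 points (two-sided exact sign-flip permutation test, p = 0.03125, the smallest that 6 libraries allow). This test covers the variation between libraries for a fixed set of genes and not the spread from gene to gene, here and wherever it is used on classes of promoters. With all sites pooled, so that well covered promoters weigh more, the means were 16.4% and 4.47% and the difference fell to 11.9 points. Protein-coding promoters by their nature had no limit of 1 kb from protein-coding starts, and the part of this limit in the difference was not tested. The library numbered 3 was the lowest of its group for both kinds of promoter, and ENR replicate 3 was the lowest of all 6.

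The comparison was repeated for CpG-rich and other sites. Sites were named island-like where the surrounding 201 bp reached a GC content of 50% and a ratio of observed to expected CpGs of 0.6. Island-like sites made up 53.8% of lincRNA promoter sites and 80.4% of protein-coding promoter sites. At island-like sites alone, 317 lincRNA promoters averaged 11.9% and 12232 protein-coding promoters 2.83%, a difference of 9.07 points ± 0.655 (SD, n = 6 libraries). At the remaining sites, 719 lincRNA promoters averaged 32.2% and 9967 protein-coding promoters 14.8%, a difference of 17.4 points ± 1.61 (SD, n = 6 libraries). Both differences were positive in 6 of 6 libraries (exact sign-flip permutation test, p = 0.03125 for each).

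Noncoding genes of another type were then compared. Antisense genes, chosen by the same distance limits, averaged 29.5% over 383 promoters. The lincRNA mean was lower by 0.105 points, with a range over libraries from -0.866 to 0.743 points, and was higher in only 1 of 6 libraries (exact sign-flip permutation test, p = 0.53125). A difference of that size was smaller than its SD over libraries, 0.515 points.

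LincRNA promoters spread over the whole scale. By the mean of 6 libraries, 472 of 845 (55.9%) were under 20%, 258 (30.5%) between 20 and 80% and 115 (13.6%) over 80%. Among 13885 protein-coding promoters the same shares were 90.9%, 7.02% and 2.03%. The lowest step of the scale, under 5%, held 279 lincRNA promoters (33.0%) and 74.7% of protein-coding promoters. In single libraries the share of lincRNA promoters under 20% ran from 53.1 to 62.8%, the share between 20 and 80% from 27.1 to 32.3% and the share over 80% from 10.1 to 15.5%. Each share differed from that of protein-coding promoters in the same direction in 6 of 6 libraries (exact sign-flip permutation test, p = 0.03125 for each).

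**Figure D1:**
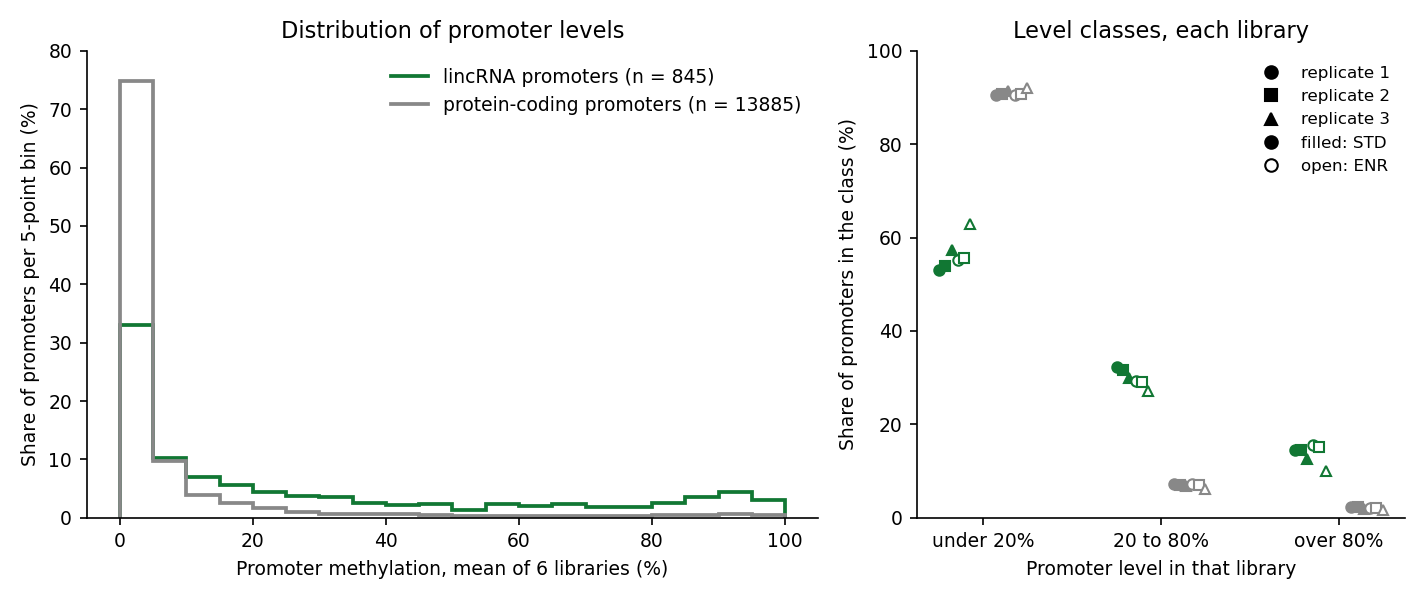
Left, the share of promoters in each 5-point step of methylation (%), for lincRNA (green) and protein-coding (grey) promoters with at least 3 sites, by the mean of 6 libraries. Right, the share of promoters (%) under 20%, at 20 to 80% and over 80% in each library, filled symbols for STD and open symbols for ENR, with a symbol shape per replicate number. The first step holds 33.0% of lincRNA and 74.7% of protein-coding promoters, and the green points of the upper classes lie above the grey ones in every library.

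Methylation was lowest near the start and rose on either side. In bins of 250 bp, sites up to 250 bp upstream of a lincRNA start averaged 20.4% over 388 genes, and sites 750 to 1000 bp upstream averaged 34.0% over 116 genes. The outer upstream bin was higher by 13.6 points, with a range over libraries from 11.8 to 16.1. Downstream, the outer bin was higher than the bin next to the start by 9.73 points, with a range from 8.83 to 10.8. Protein-coding promoters showed the same dip from a lower floor, 5.06% in the bin just upstream of the start, with rises of 16.5 points upstream and 11.6 points downstream. All 4 rises were present in 6 of 6 libraries (exact sign-flip permutation test, p = 0.03125 for each), and different genes contribute to different bins.

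**Figure D2:**
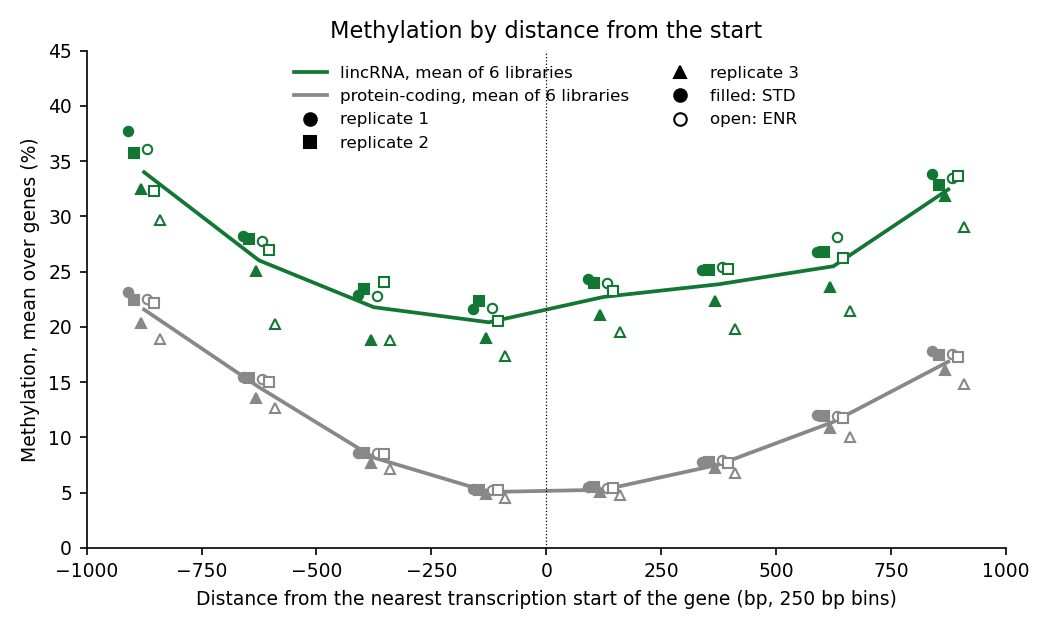
Methylation (%) averaged over genes in 250 bp bins by distance (bp) from the nearest start of the gene, negative upstream, for lincRNA (green) and protein-coding (grey) promoters. Lines join means of 6 libraries and symbols are single libraries, filled for STD and open for ENR. Both curves dip at the start, the lincRNA curve to 20.4% and the protein-coding curve to 5.06%.

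Mean levels were set beside the annotation of the lincRNA genes. The mean of the genes in a class was compared between classes within each library, in 16 pairs of classes. All 16 differences had the same sign in 6 of 6 libraries (exact sign-flip permutation test, adjusted p = 0.03125 for each after Benjamini-Hochberg over the 16 pairs, which is also the smallest possible value). A gene belongs to several classes, so that these differences are not independent, and whether they exceed the spread between genes of a class was not tested. Of these pairs, 14 were also compared within CpG classes. The sign was kept in 6 of 6 libraries for 13 of 14 pairs at a CpG ratio of at least 0.6, but for only 8 of 14 under 0.6, where the mean difference of 2 pairs was reversed.

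CpG content went with a large difference. In the 300 bases from 250 before to 50 after the start, 232 promoters (27.5%) reached a ratio of observed to expected CpGs of 0.6, against 71.1% of protein-coding promoters. These 232 averaged 15.0% and had a median of 3.23%, while the 613 with a lower ratio averaged 34.9%, with a median of 22.2%. Of the CpG-rich promoters 80.6% were under 20%, against 46.5% of the others. Across the 845 promoters the mean level and the CpG ratio had a Spearman rho of -0.377, and the mean level and the number of covered sites a rho of -0.579. These are correlations across genes, which share the 6 libraries and are not independent replicates.

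Repeats marked the opposite end. In 70 promoters at least 50% of the 300 bases were marked as repeat in the reference. These averaged 60.5%, with a median of 72.2%, and 44.3% of them were over 80%. The other 775 averaged 26.6%, a difference of 33.9 points with a range over libraries from 31.9 to 35.9. Of the repeat class 17.1% were CpG-rich, against 28.4% of the others, and the median number of sites was 5 against 8. This pair was not compared within CpG classes. Across the 845 promoters the mean level and the repeat share had a Spearman rho of only 0.133.

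Classes by distance to protein-coding genes were compared in the same way. Promoters whose start was over 50 kb from a protein-coding start averaged 33.1% (371 genes), those at 5 to 50 kb 29.2% (365 genes) and those at 1 to 5 kb 20.1% (80 genes). For 29 genes the start itself lay under 1 kb from a protein-coding start, although every counted site lay farther away, and these averaged 11.0%. Among CpG-rich promoters the means were 22.2%, 12.0%, 10.5% and 6.20%. In ENR replicate 3 the class at 5 to 50 kb (10.2%) was below that at 1 to 5 kb (10.5%), and by medians the class under 1 kb (2.61%) was above those at 1 to 5 kb (1.96%) and 5 to 50 kb (2.26%). Among promoters with a CpG ratio under 0.6 the means were 36.2%, 35.7%, 25.6% and 20.2%. The first 2 of these were close, with the median over 50 kb (23.2%) below that at 5 to 50 kb and, in ENR replicate 2, means of 37.2% and 37.4%. The 55 promoters that lay inside the body of a protein-coding gene averaged 25.6%, against 29.7% for the 790 outside. Under a CpG ratio of 0.6 that difference was -1.39 points and was reversed in 1 of 6 libraries.

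Naming and structure of the gene also went with the level. The 54 lincRNA genes named in none of the ways listed next averaged 14.9%. They include symbols such as Malat1 or Miat, but also accession-like names such as AI480526. Genes with a provisional Gm name averaged 30.5% (520 genes), those with a Rik clone name 29.1% (206 genes) and those named only by a genomic clone 33.6% (65 genes). The difference between Gm genes and these 54 genes was 15.6 points, with a range over libraries from 15.0 to 16.2. It was 12.8 points among CpG-rich promoters and 12.0 points among the others. The 54 genes also had more covered sites than Gm genes, with a median of 13 against 7, and 44.4% of them were CpG-rich against 25.2%. Genes annotated with 1 exon only averaged 23.4% (57 genes), lower by 6.47 points than the 788 spliced genes, and 42.1% of them were CpG-rich against 26.4%. Among promoters with a CpG ratio under 0.6 the means were close, 33.6% and 34.9% (medians 22.0% and 22.2%), and the genes with 1 exon were higher in 2 of 6 libraries. In the same class Gm genes were lower than Rik genes by 2.34 points on average, while over all promoters they were higher.

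Well-studied lincRNAs were then taken by their roles. The lists hold genes of GENCODE M21 type lincRNA among the members, so that many known noncoding RNAs of other annotation types are not in them.

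Hosts of small nucleolar RNAs, whose introns carry guides of RNA modification, were unmethylated. Snhg6, Snhg20, Snhg10 and Snhg12 averaged from 0.453 to 4.15% over the 6 libraries. In Snhg12 1 of 19 sites stood at 50.9% and its median site at 1.02%. Of the 4 hosts, 3 were lower and 1 was higher in ENR, beside 52.9% of all promoters lower. The differences ran from -0.732 to 0.365 points, with none at an unadjusted limma p-value under 0.05. Only at Snhg20 did the groups not overlap, with 0.353%, 1.69% and 0.441% in STD and 0, 0 and 0.283% in ENR. Of all promoters, 5.73% were lower in ENR without overlap.

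Hosts of microRNAs were low as well, at 1.38 to 6.27% for 6 genes. Mir124a-1hg and Mir124-2hg, which carry the neuronal microRNA miR-124, averaged 2.21% over 48 sites and 4.98% over 33 sites. Mir9-3hg, which carries miR-9 of neural progenitors, averaged 2.26% over 76 sites in 4 separate stretches. The 51 sites 145 to 644 bp downstream averaged 2.497%. Its highest stretch held 4 sites 14952 to 14887 bp upstream, near another annotated start, at 0.543%, 2.51% and 5.06% in STD and 10.1%, 14.1% and 8.04% in ENR, which did not overlap. This stretch was singled out after its values were seen and was not tested by itself. Mir17hg, the host of the growth-promoting miR-17 cluster, averaged 1.38% over 47 sites. Mir155hg, the host of the immune microRNA miR-155, was the highest at 6.27%, and 2 levels lay behind this mean. Its 55 sites between 169 bp upstream and 469 bp downstream averaged 1.31%, while 6 sites 615 to 500 bp upstream averaged 51.7%, with 53.3%, 60.6% and 46.3% in STD replicates 1 to 3 and 51.7%, 61.1% and 37.1% in ENR replicates 1 to 3. Mir670hg, at 2.86%, 0 and 0% in STD and 2.67%, 3.50% and 2.48% in ENR, had the lowest p-value of these hosts (limma, unadjusted p = 0.0562, adjusted p = 0.997 with Benjamini-Hochberg), and its groups overlapped.

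Scaffolds of nuclear bodies followed the same pattern. Malat1, an abundant RNA of nuclear speckles, averaged 1.61% over 20 sites, and Miat, a nuclear RNA of neurons, 1.23% over 22 sites. Neat1, the scaffold of paraspeckles, averaged 7.61%. Its 15 sites 436 to 264 bp upstream averaged 1.32%, with 0.745 to 3.14% in single libraries. Its 3 sites 845 to 891 bp downstream stood at 46.4%, 40.6% and 20.6% in STD and at 52.7%, 74.1% and 0% in ENR, so that the ENR libraries enclosed the whole range of the STD libraries.

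Among the 10 lincRNAs on a list chosen as neural, 8 were under 20%. Whether each of them is particular to neural cells was not tested. C130071C03Rik, which hosts miR-9 and lies near Mef2c, averaged 2.55% over 46 sites in separate places up to 17532 bp downstream. It and 9530059O14Rik were the 2 of the 10 whose groups did not overlap, higher in ENR (background 3.87%). Their differences were 0.478 and 0.571 points (limma, unadjusted p = 0.357 and 0.163). Lncpint averaged 1.63% over 64 sites, Epb41l4aos 1.15% over 39 sites, and Pantr1, the neighbour of the neural factor gene Pou3f3, 6.46% over 35 sites. In Pantr1, 9 sites 61 to 411 bp downstream averaged 2.24% and 23 sites 682 to 1175 bp downstream 1.99%, whereas 3 sites near another annotated start, 43358 to 43410 bp downstream, stood at 53.5%. Rmst, a partner of SOX2 in neurogenesis, averaged 8.02%, with 16.2% at the 6 sites nearest its start and 1.00% at 7 sites 346 to 420 bp downstream. Otx2os1, opposite the homeobox gene Otx2, averaged 5.53%. The exception in this list besides Meg3 was 2900097C17Rik, at 40.2%, 58.3% and 18.6% in STD and 43.3%, 19.6% and 5.77% in ENR. All 10 of its sites were intermediate, at 25.7 to 38.6%. Its groups overlapped, and the difference of -16.2 points had an unadjusted limma p-value of 0.234. Hottip, at the end of the Hoxa cluster, averaged 4.28% over 5 sites.

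**Figure D3:**
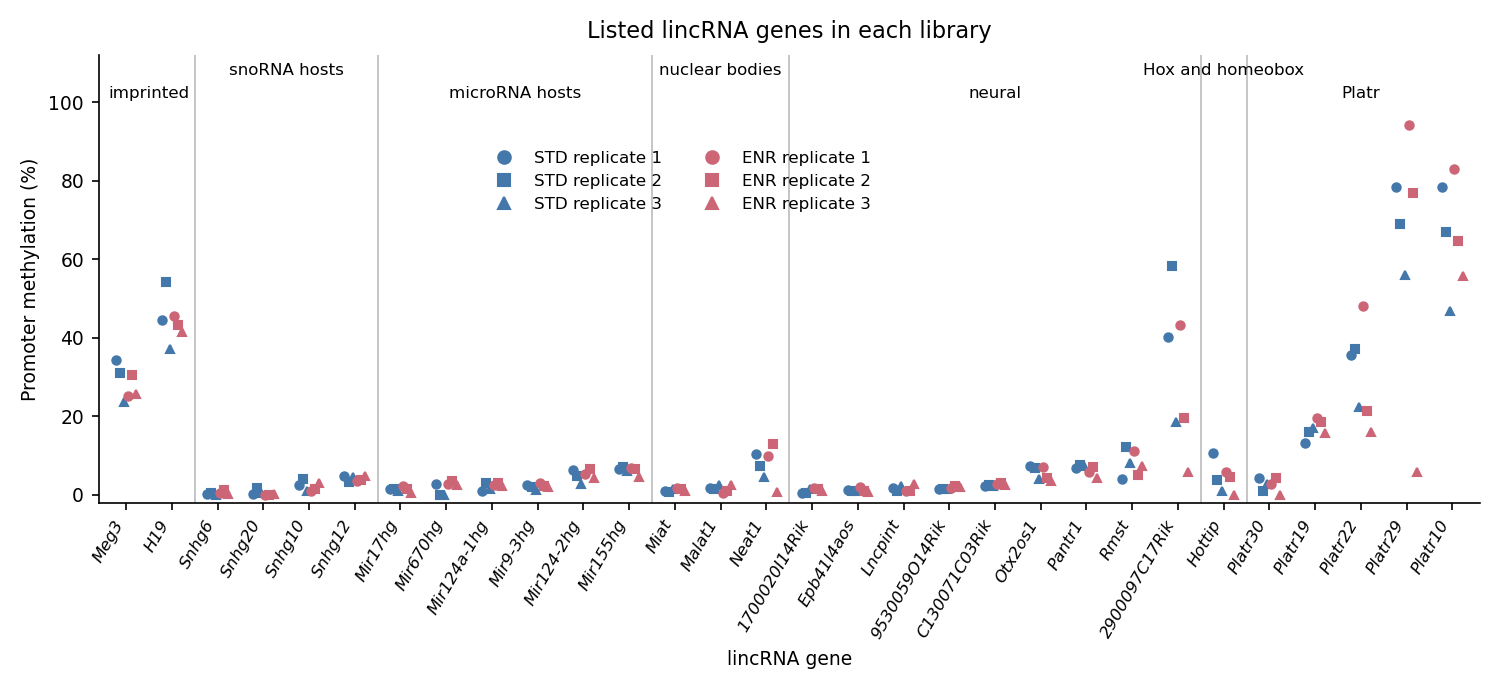
Promoter methylation (%) of the listed lincRNA genes in each library, STD in blue and ENR in red with a symbol shape per replicate number, grouped by role and ordered by level within a group. Host genes and nuclear body RNAs reach at most 7.04% except for Neat1, which reaches 13.0%, Meg3 and H19 lie between 23.8 and 54.2%, and 2900097C17Rik and Platr29 have the widest spread.

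The imprinted genes H19 and Meg3 had levels that changed along the gene. H19, which is made from the maternal chromosome and limits growth, had a promoter mean of 44.4%, 54.2% and 37.1% in STD and 45.5%, 43.3% and 41.5% in ENR. The mean joined 2 places. At the 4 sites 100 to 49 bp upstream of the start the libraries stood at 9.84%, 21.9% and 5.004% in STD and 6.45%, 9.75% and 0% in ENR. At 4 sites 2131 to 2348 bp downstream, near a later annotated start, they stood at 79.0%, 86.5% and 69.2% in STD and 84.6%, 76.9% and 83.1% in ENR. Only 1 of its 8 sites, 2131 bp downstream, was between 20 and 80%, at 40.7%.

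Meg3, another maternal transcript, of the Dlk1 and Dio3 domain, had 32 sites and promoter means of 34.5%, 31.0% and 23.8% in STD and 25.3%, 30.6% and 25.7% in ENR. Its 9 sites from 108 bp upstream to 70 bp downstream of the start averaged 2.47%, with 1.21 to 4.65% in single libraries. The 10 sites 948 to 646 bp upstream averaged 34.3%, with 51.9%, 38.2% and 27.3% in STD and 20.3%, 33.3% and 35.1% in ENR. At 4 sites 3770 to 3978 bp downstream the mean was 84.9%, and at 4 sites 5368 to 5433 bp downstream it was 18.3%. The low stretch thus lay directly at the start, with intermediate methylation upstream and high methylation near a later annotated start. Neither imprinted gene differed between housing groups beyond the spread between mice, with differences of -1.79 points for H19 (limma, unadjusted p = 0.774) and -2.55 points for Meg3 (unadjusted p = 0.556). Mirg, also in the imprinted list, had 1 covered site, at 36.4%, 0 and 0% in STD and 0, 0 and 4.17% in ENR.

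**Figure D4:**
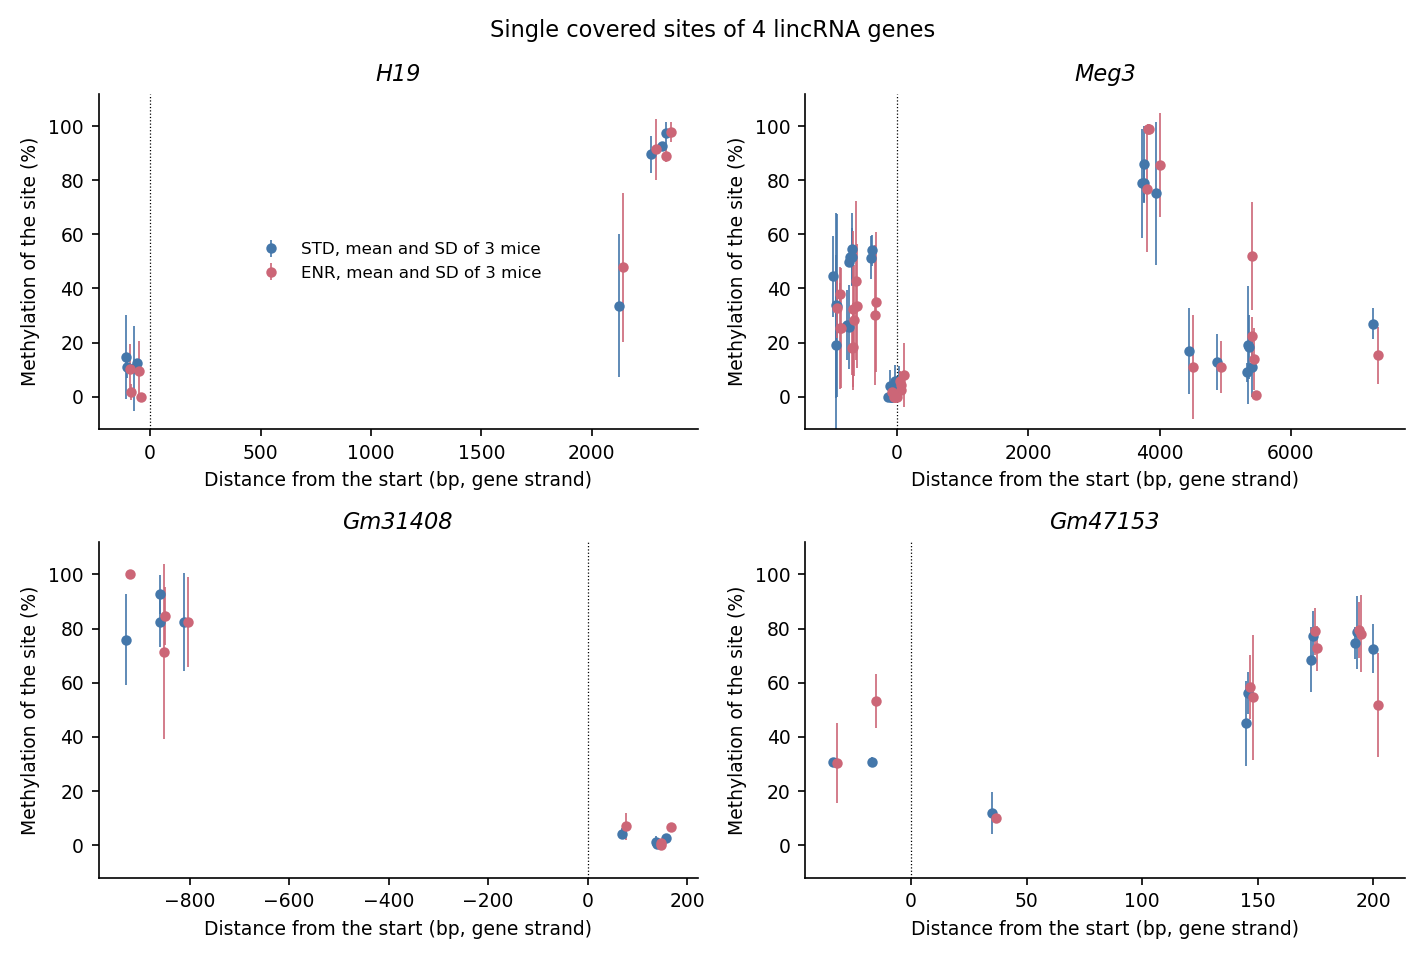
Methylation (%) of single covered sites by distance (bp) from the start in the direction of transcription for H19, Meg3, Gm31408 and Gm47153. Points are means and bars SDs of 3 mice, STD in blue and ENR in red, and the dotted line marks the start. H19 and Gm31408 join low and high sites, Meg3 has low sites at the start between higher ones, and 9 of 10 sites of Gm47153 are intermediate.

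Intermediate promoter means had different make-ups. Of the 258 promoters at 20 to 80%, 64 (24.8%) had every site at 20 to 80%, and 37 (14.3%) had a site under 20% together with a site over 80%. In the 975 protein-coding promoters of that range the shares were 13.6% and 44.0%. Stable intermediate levels were rare. Of 610 lincRNA promoters with at least 5 sites, 17 (2.79%) lay between 35 and 65% in all 6 libraries. In 8 of these 17 a site under 20% and a site over 80% were averaged, and in 2 every site was intermediate.

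The least variable of the 17 was Gm31408, at 42.3%, 43.8% and 42.3% in STD and 45.8%, 46.5% and 40.1% in ENR. None of its 8 sites was itself intermediate, as the sequences above show. Gm39822 was of the same kind, with 6 sites at 7.02% from 141 bp upstream to 27 bp downstream and 5 sites at 96.6% between 946 and 991 bp downstream. Gm47153 differed from these, since 9 of its 10 sites were at 20 to 80% and its library means were 55.8%, 53.9% and 54.3% in STD and 60.5%, 56.2% and 53.8% in ENR. AC121603.3, with 5 sites, stood between 43.8 and 56.5%. The housing differences of these 4 had unadjusted limma p-values from 0.674 to 0.951. The 4 were chosen for a low SD over all 6 libraries, so that these p-values cannot speak to housing.

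At the top of the scale stood Gm26874, Gm30198 and Gm47549. Gm26874, inside a protein-coding gene, was at 98.1%, 96.7% and 100% in STD and 100% in each ENR library. Gm30198 ranged from 96.9 to 100% and Gm47549 from 95.2 to 100%, and in both the whole 300 bases around the start were repeat sequence. The best covered promoters stood at the other end. Gm26709, with 89 sites, averaged 2.11 to 2.92% in STD and 1.06 to 2.73% in ENR. The 87 sites of 6720427I07Rik averaged 0.986 to 1.27% in the 6 libraries and the 87 of Gm27017 1.06 to 1.53%.

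Variation between mice was larger at lincRNA promoters than at protein-coding promoters of the same level class. For promoters at 20 to 80% the median SD over 6 libraries was 9.34 points for lincRNA and 6.11 for protein-coding genes, and for promoters under 20% it was 1.81 against 0.730. LincRNA promoters had fewer covered sites to average, and the part of site number in this spread was not tested. The most variable lincRNA promoters with at least 5 sites were Gm47944, Gm11691 and Gm35608. Gm47944 was at 2.14%, 0 and 0% in STD and at 52.3%, 30% and 1.11% in ENR. Gm11691 was at 63.6%, 75.2% and 43.4% in STD and at 52.0%, 68.2% and 16.3% in ENR. Gm35608 was at 94.9%, 92.4% and 90.7% in STD and at 84.6%, 98.0% and 41.1% in ENR, so that ENR replicate 3 alone stood far below the others.

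The second comparison asked whether enrichment changed these promoters. Averaged over 845 promoters, STD mice stood at 29.9% ± 1.78 (SD, n = 3) and ENR mice at 28.9% ± 2.93 (SD, n = 3). The means differed by -1.06 points, less than the SD within each housing (p = 0.5 by a two-sided exact permutation test, which cannot go below 0.1). Without ENR replicate 3 it turned to 0.630 points, with STD replicate 3, the low library of its group, still in the comparison. Within the replicate numbers 1, 2 and 3, ENR minus STD was -0.144, -0.654 and -2.37 points, lower in ENR in all 3. An alternative added after seeing the data left out both libraries numbered 3, and the difference was then -0.399 points (exact permutation p = 0.333, the smallest that 2 against 2 allow). The 258 promoters at 20 to 80% averaged 46.4% ± 3.80 (SD, n = 3) for STD mice and 43.9% ± 6.37 (SD, n = 3) for ENR mice (exact permutation p = 0.5). The share of promoters between 20 and 80% was the class share in which the groups did not overlap, with 32.3%, 31.6% and 29.9% in STD and 29.2%, 29.1% and 27.1% in ENR (difference -2.80 points, exact permutation p = 0.1, the smallest possible). It was 1 of 3 class shares compared, and the other 2 did not separate the groups.

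For single genes, limma was fitted to the promoters of all 18875 genes with at least 3 sites whose values varied. After Benjamini-Hochberg adjustment no promoter was under 0.05, and the smallest adjusted value among 844 lincRNA promoters was 0.997. On an arcsine scale 1 promoter passed, which was not of a lincRNA gene. Unadjusted p-values under 0.05 were found for 50 lincRNA promoters (5.92%), beside 4.52% of all promoters tested. Of the 50, 34 were lower in ENR (4.03%, background 2.81%) and 16 higher (1.90%, background 1.71%). Without ENR replicate 3 this balance turned over, since 66 promoters (7.82%, beside 5.37% of all promoters) then had such p-values and 37.9% of them were lower in ENR, beside 43.1% for all promoters. Without both libraries numbered 3 there were 73 (8.65%, beside 5.22%), of which 56.2% were lower, beside 56.7% for all promoters. Groups did not overlap at 46 lincRNA promoters that were lower in ENR (5.45%, background 5.73%) and at 28 that were higher (3.32%, background 3.87%). A difference over 10 points was seen lower at 46 promoters (5.45%, background 1.45%) and higher at 25 (2.96%, background 0.636%). More of the lincRNA promoters were intermediate and they had fewer sites, whose part in these counts was not tested. By level class, unadjusted p-values under 0.05 were found at 35 of 472 lincRNA promoters under 20% (7.42%, beside 4.66% of all promoters of that class), at 13 of 258 between 20 and 80% (5.04%, beside 3.83%) and at 2 of 114 over 80% (1.75%, beside 3.76%).

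The direction of the small differences was uneven. Of 844 lincRNA promoters, 482 (57.1%) were lower in ENR, beside 52.9% of all promoters, with a median difference of -0.346 points against -0.0531. Without ENR replicate 3 the share turned to 47.0%, beside 48.8% of all promoters. Without both libraries numbered 3 it was 53.4%, beside 51.5%, and with quantile normalization between libraries it was 52.5%, beside 47.6%. In the class of 20 to 80% the median difference was -2.50 points for lincRNA promoters and -1.03 for all promoters.

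The lower promoters with the lowest p-values, taken among those whose groups did not overlap, were Gm17028, Gm47972, Gm27239, Mirt1 and Gm30097. Gm17028, whose start lies 129 bp from that of the homeobox gene Alx1, had 4 sites 962 to 903 bp upstream. Its values were 6.91%, 9.29% and 10.005% in STD and 2.84%, 1.40% and 3.14% in ENR, a difference of -6.28 points (limma, unadjusted p = 0.000563, adjusted p = 0.997 with Benjamini-Hochberg). Every ENR library was under 3.15% and every STD library was over 6.90%. Gm27239, 685 bp from the start of Sall3, averaged 10.1%, 14.6% and 6.72% in STD and 3.19%, 2.45% and 3.29% in ENR over 17 sites (unadjusted p = 0.00521). Gm47972 was at 6.20%, 6.03% and 3.80% in STD and 0, 0 and 2.98% in ENR over 4 sites. Mirt1 was at 20.8%, 12.7% and 13.8% in STD and 3.03%, 8.47% and 7.30% in ENR, with only 3 sites in 2 separate places. Gm30097 was at 9.36%, 7.06% and 6.00% in STD and 2.18%, 2% and 4.80% in ENR over 5 sites. With the median over sites in place of the mean, the difference of Gm27239 went from -7.50 to -3.03 points and that of Gm30097 from -4.48 to -7.02.

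The higher promoters by the same rule were Gm32224, Gm2694, Gm47861 with 2310001H17Rik, and 4933404O12Rik. Gm32224 had 9 sites between 319 and 650 bp downstream and values of 6.41%, 8.86% and 6.03% in STD and 15.3%, 15.5% and 12.4% in ENR, a difference of 7.31 points (limma, unadjusted p = 0.00153, adjusted p = 0.997 with Benjamini-Hochberg). Gm2694, whose start lies 203 bp from that of the synaptic organiser gene Cbln1, was listed at 0 in each STD library and stood at 23.5%, 10.3% and 8.33% in ENR over 3 sites. In ENR replicates 2 and 3 only 1 of the 3 sites was above 0, so that the other 2 sites were methylated in ENR replicate 1 alone. Without that library the difference went from 14.04 to 9.29 points. Because 3 sites stand behind it and the read depth is unknown, no fold is given. Gm47861 and 2310001H17Rik share the same 7 sites and are 1 measurement, at 0.328%, 1.53% and 0% in STD and 2.01%, 4.57% and 3.33% in ENR. 4933404O12Rik was at 1.02%, 0.417% and 0.692% in STD and 1.63%, 1.86% and 2.11% in ENR over 22 sites. With the median over sites the differences of Gm47861, 2310001H17Rik and 4933404O12Rik became 0, that of Gm32224 went from 7.31 to 4.06 points and that of Gm2694 to 7.84 points, carried by ENR replicate 1 alone. All 10 promoters stayed under 25% in every library.

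**Figure D5:**
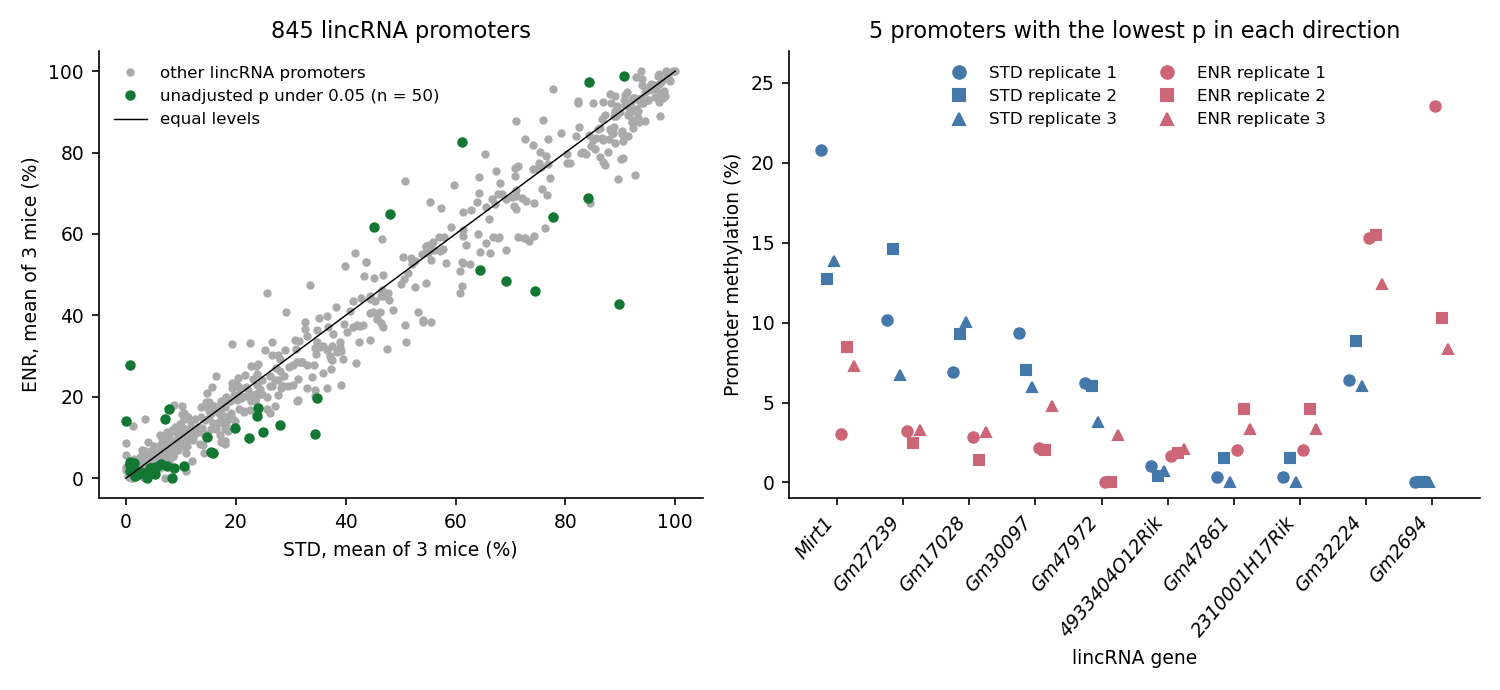
Left, ENR against STD mean methylation (%) of 845 lincRNA promoters, with the line of equal levels and the 50 promoters at an unadjusted limma p-value under 0.05 in green. Right, each library's value (%) for the 5 promoters per direction with the lowest p-values and groups that do not overlap, STD in blue and ENR in red. No green point passes the adjusted threshold, and the promoters on the right stay under 25% in every library.

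Large differences of means are given for 2 more promoters that were chosen after their values were seen. Gm49454 was at 93.3%, 76.1% and 100% in STD and 85.5%, 21.2% and 21.4% in ENR over 4 sites, so that the groups overlapped despite a difference of -47.1 points, the largest decrease among lincRNA promoters. The largest increase, 27.1 points, was that of Gm47944, whose values are given above. AY512931, in which 88.7% of the bases around the start are repeat, was at 68.4%, 68.4% and 70.8% in STD and 56.5%, 49.8% and 39.3% in ENR over 4 sites, without overlap (limma, unadjusted p = 0.0109, adjusted p = 0.997 with Benjamini-Hochberg). Of the 50 promoters at p under 0.05, 17 had a difference over 10 points and 13 had fewer than 5 sites.

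Single sites gave no call either, but their counts lay nearer to the background than those of promoters. Of 8429 lincRNA promoter sites that varied, none passed an adjusted limma p-value under 0.05 with a difference over 25 points, and the smallest adjusted value was 0.852. Unadjusted p-values under 0.05 were found at 149 sites that were lower in ENR (1.77%, background 1.64%) and at 87 that were higher (1.03%, background 1.04%). A difference over 25 points was seen lower at 139 sites (1.65%, background 1.79%) and higher at 72 (0.854%, background 1.02%).

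The sites with the lowest p-values, 3 per direction and 1 per gene, were set beside the other sites of the same promoter. At H19 the minus strand cytosine at position 142578192 of chromosome 7, 49 bp upstream of the start, was at 13.5%, 12.2% and 12.1% in STD and 0 in each ENR library (limma, unadjusted p = 0.00375, adjusted p = 0.852 with Benjamini-Hochberg). The 7 other H19 sites had a mean difference of -0.246 points, and 4 of them were lower in ENR. At Gm11205 a site was at 11.3%, 13.6% and 11.0% in STD and 0 in ENR, and 10 of its 38 other sites were lower, while 22 of the 38 were at 0 in every STD library. At AC166821.1 a site was at 13.1%, 9.62% and 14.3% in STD and 0 in ENR, and 8 of 13 others were lower. Among higher sites, that of AI480526 was 0 in STD and 11.1%, 16.1% and 14.8% in ENR, with 13 of 58 others higher. The site of Gm12962 was at 76.1%, 83.0% and 85.7% in STD and 100% in each ENR library, while the 2 other sites averaged 73.0%, 74.7% and 72.7% in STD and 51.5%, 75% and 0 in ENR, so that ENR replicate 3 made up most of their mean difference of -31.3 points. At Gm2694 the site with the lowest p-value was 0 in STD and 23.5%, 30.8% and 25% in ENR, while the 2 other sites averaged 23.5% in ENR replicate 1 and were at 0 in the other 5 libraries.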

How the data were processed

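DNA methylation was measured by RRBS in the dentate gyrus of 3 STD and 3 ENR mice, grouped by the housing given in the labels. The deposited values are percent methylation per CpG cytosine, made by the authors from reads aligned to mm10, and cover sites with at least 10 reads in every library. The submitters' processing notes name Trim Galore 0.4.0, cutadapt 1.8.1, Bismark 0.16.1 and methylKit 1.5.2. Of 890041 rows, 866851 are autosomal. No column of per-library values was left unused. Read numbers are not in the table, so the read-level test of the study could not be run, depth per library is unknown and no counting interval is given.

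Sites were assigned to GENCODE M21 starts in Python 3.11.15, and a promoter value was the mean over its sites (at least 3). Promoters of all autosomal genes, and all varying sites, were tested in limma 3.58.1 (R 4.3.3) with a variance trend and Benjamini-Hochberg adjustment. The call for a promoter was an adjusted p-value under 0.05, and a site also needed a difference over 25 points. Group means were compared by exact permutation over 20 regroupings, and classes within libraries by sign flips over 64 patterns. The scripts were tested on simulated data.

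The members and lists were chosen with earlier results of these data known, and the Platr list was added after the values were seen. Genes were named if they were on a list, were among the 5 with the lowest p-values in each direction without overlap, the 3 highest, the 3 best covered, the 4 least variable at 35 to 65% in all libraries or the 3 most variable (the highest, least variable and most variable among promoters with at least 5 sites), and for sites the 3 with the lowest p-values in each direction. Genes outside this rule are marked as chosen after their values were seen.

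Replicate numbers are shared by both groups, but the labels name no shared batch. Deviations of same-numbered libraries from their group means correlated over 18908 promoters at 0.145, 0.126 and 0.309 for numbers 1 to 3, each over 0.1. Libraries with different numbers correlated at -0.208 to 0.114, with STD replicate 1 and ENR replicate 2 at 0.114 and STD replicate 2 and ENR replicate 1 at 0.0990. Over all promoters the correlation of numbers 1 and 2 was thus hardly particular to the shared number. Over the 845 lincRNA promoters, same-numbered libraries correlated at 0.188, 0.117 and 0.257. Those with different numbers correlated at -0.194 to 0.0299 there, so that the correlation followed the shared number. A fit with the replicate number as a block was made as an alternative. This pairing is a weak hint from the data. It rests mainly on number 3 over all promoters, while each number showed it over lincRNA promoters. Other alternatives changed the window, the distance limit, the summary over sites, the site minimum, the scale, the normalization and the libraries. Alternatives with 1 start per gene and without both libraries of a number were added after seeing the data.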

Additional observations from a re-analysis of the deposited data

How the results depend on the processing

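No lincRNA promoter or site was called under any alternative run. The number of promoters at an unadjusted limma p-value under 0.05, 50 in the report, was 30 with the median over sites (4.81%, beside 4.16% of all promoters) and 11 at a limit of 0.01 (1.30%, beside 0.805%). It ranged from 40 (4.74%, beside 3.94%, without STD replicate 1) to 68 (8.06%, beside 5.37%, without ENR replicate 1) when each library was left out. With the replicate block it was 68 (8.06%, beside 4.73%) with none adjusted, 235 sites had p under 0.05 (2.79%, beside 2.57% of all sites) and the mean housing difference had a permutation p of 0.25, the smallest possible; the block changed no call. The number of sites at p under 0.05, 236 in the report (2.80%, beside 2.68%), was 374 without a variance trend (4.44%, beside 3.91%). It ranged from 251 (3.08%, beside 3.31%, without ENR replicate 3) to 344 (4.23%, beside 3.54%, without STD replicate 3) when each library was left out. The mean housing difference turned to 0.630 points without ENR replicate 3 (exact permutation p = 1), and leaving out each library gave -2.08 to 0.630. Leaving out both libraries of a number, added after seeing the data, gave -1.51, -1.26 and -0.399 points for numbers 1 to 3, with 56, 52 and 73 promoters at p under 0.05 (6.67%, 6.16% and 8.65%, beside 4.23%, 4.22% and 5.22% of all promoters) and 177, 181 and 249 sites (2.35%, 2.34% and 3.20%, beside 2.43%, 2.36% and 3.51%).

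The difference between lincRNA and protein-coding promoters was 21.4 to 22.3 points when each library was left out, with a sign-flip p of 0.0625, the smallest that 5 libraries allow, and 21.1, 21.2 and 22.8 points without both libraries numbered 1, 2 and 3, with a p of 0.125, the smallest that 4 allow. It was 16.9 points with at least 5 sites and 25.2 with at least 1. It was -0.105 points when antisense promoters took the place of protein-coding ones (exact sign-flip permutation p = 0.53125). With 1 start per gene, added after seeing the data, it was 22.6 points and 43 promoters had p under 0.05 (5.13%, beside 4.51%).

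The shares under 20%, at 20 to 80% and over 80% were 61.7%, 26.9% and 11.4% within 500 bp of the start, 49.3%, 33.2% and 17.5% with at least 1 site, 65.4%, 24.9% and 9.67% with at least 5 sites, and 43.3%, 49.1% and 7.57% with limits of 10 and 90%. The middle share was 32.4% over 5 kb from protein-coding starts and 26.0% with the median over sites. The cause of these shifts was not tested. Of 53 named genes, 15 kept the direction of their housing difference under each of the 10 to 12 alternatives run for them and 34 without each library in turn.

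The table gives no depth, so that a site read 10 times and a deeply read site count alike. With 3 mice a group, p-values measure the spread between these mice only. RRBS covers CpG-rich fragments, and 235 of 845 promoters rest on fewer than 5 sites.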

Other observations

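Short motifs in the 300 bases around the start were searched on both strands. The TATA box (TATAAA) was found at 97 lincRNA promoters (11.5%) and 6.60% of protein-coding promoters, the GC box (GGGCGG) at 196 (23.2%) and 63.6%, and the cAMP response element (TGACGTCA) at 10 (1.18%) and 3.13%. LincRNA promoters with a GC box had a median methylation of 3.45%, those without one 21.3%. With a TATA box the median was 26.1%, without one 12.8%. The GC box and the cAMP response element each hold a CpG and so go with CpG content. The 10 promoters with the cAMP response element had a median of 1.53%, against 15.1% for the others. The highest was Meg3, at 28.5% over all its sites. Around the element itself, from 108 bp upstream to 70 bp downstream of the start, Meg3 averaged 2.47%. A match is a description of the letters and no evidence of binding.

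Platr genes, named for pluripotency-associated transcripts of embryonic stem cells, formed a list that was added after the values were seen. Their 5 promoters with at least 3 sites ran from 2.55% at Platr30 and 16.7% at Platr19 to 30.1% at Platr22, 63.4% at Platr29 and 65.9% at Platr10. Platr29 stood at 78.4%, 69.1% and 55.9% in STD and at 94.2%, 76.8% and 5.95% in ENR, where ENR replicate 3 lay far below the other libraries.

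The 294 promoters with 1 or 2 sites averaged 52.2% ± 3.11 (SD, n = 3) for STD mice and 49.7% ± 5.26 (SD, n = 3) for ENR mice (two-sided exact permutation p = 0.5). Of these, 90 were under 20%, 120 between 20 and 80% and 84 over 80%.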
